A study of Homo sapiens with 6 samples.

Results

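*AIF1L* and its paralog *AIF1*, genes for calcium-binding proteins that act on actin filaments, were followed in 6 RNA libraries of K562 cells, together with the genes around *AIF1L*. *AIF1L* was selected on its measured change between GSK343 and DMSO in these same libraries, and *AIF1* was taken as its paralog, so the levels of both are described without a test. They are 2 of the 60671 genes listed in the counts, of which 26226 had at least 1 read and 12364 were deep enough to be tested. K562 is an erythroleukemia line from chronic myeloid leukemia, and the cells were 1 clone in which doxycycline switches on Flag-NLS-M.CviPI-Lamin-B1, a GpC methyltransferase joined to a nuclear lamina protein. GSK343 at 1 µM, a small-molecule inhibitor of EZH2 (EZH2i), was given in 3 biological replicates and 0.1% DMSO in another 3. Both groups were treated for 72 h and both received 1 µg/mL doxycycline over the last 24 h, so the fusion was switched on in the controls too. Results from a single clone may not carry over to other K562 cells.

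AIF1, also called Iba1, is an EF-hand protein of macrophages and microglia that binds and bundles actin filaments and takes part in membrane ruffling and phagocytosis, together with the actin-bundling protein L-plastin (LCP1). AIF1L, also called Iba2, has the same fold, crosslinks actin, and is found in tissues outside the macrophage lineage. EZH2 is the catalytic subunit of Polycomb repressive complex 2, which methylates lysine 27 of histone H3 at silent genes, often those with CpG-rich promoters.

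The libraries were made from the polyadenylated end of transcripts (QuantSeq 3' mRNA-seq). The DMSO libraries held 6327544, 8711246 and 8987768 reads on genes, and the GSK343 libraries held 7273739, 7913358 and 6926167. Levels are given as CPM, which is a gene's read count relative to the library's total on genes, after scaling that total by edgeR's TMM factor. A read marks a transcript end whatever the length of the gene, so CPM was not divided by length and levels of different genes were not ranked against each other. Bulk RNA does not tell a change in the number of cells that express a gene from a change in RNA per cell.

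*AIF1L* was low in every DMSO library and higher in every GSK343 library. The gene (ENSG00000126878) lies at chr9:131096476-131123152 of GRCh38 on the plus strand, and GENCODE lists 10 transcripts for it, 7 of them protein coding and 5 ending within 10 bp of the end of the gene. Its reads numbered 40, 69 and 52 in the DMSO libraries, listed as replicates 1 to 3, and 238, 208 and 204 in the GSK343 libraries. As levels, these were 6.24, 8.17 and 5.88 CPM in DMSO and 32.1, 26.2 and 29.1 CPM in GSK343. The lowest GSK343 library lay far above the highest DMSO library. The mean was 6.76 ± 1.23 CPM in DMSO and 29.1 ± 2.995 CPM in GSK343 (± SD over 3 libraries), a ratio of 4.31 and a log2 fold change of 2.10 with a standard error of 0.173. The difference between the means was many times the SD within either group, which is a description only, because the gene was chosen on it.

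*AIF1* also lay higher in the GSK343 libraries, by a smaller margin. The gene (ENSG00000204472) occupies chr6:31615217-31617021 on the plus strand, within the major histocompatibility complex, and has 5 listed transcripts, 4 of which end within 10 bp of the gene's end. Reads on *AIF1* came to 103, 153 and 127 in the DMSO replicates and to 136, 209 and 148 in the GSK343 replicates. The corresponding levels were 16.1, 18.1 and 14.4 CPM and 18.4, 26.3 and 21.1 CPM. The groups did not overlap, but GSK343 replicate 1 was barely above DMSO replicate 2. The mean was 16.2 ± 1.87 CPM in DMSO and 21.9 ± 4.01 CPM in GSK343 (± SD over 3 libraries), a ratio of 1.36 and a log2 fold change of 0.44 with a standard error of 0.165. Without GSK343 replicate 2, the highest library, the log2 fold change was 0.29. Every GSK343 library lay above every DMSO library in 13.3% of the tested genes, and both members were among them.

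**Figure D1:**
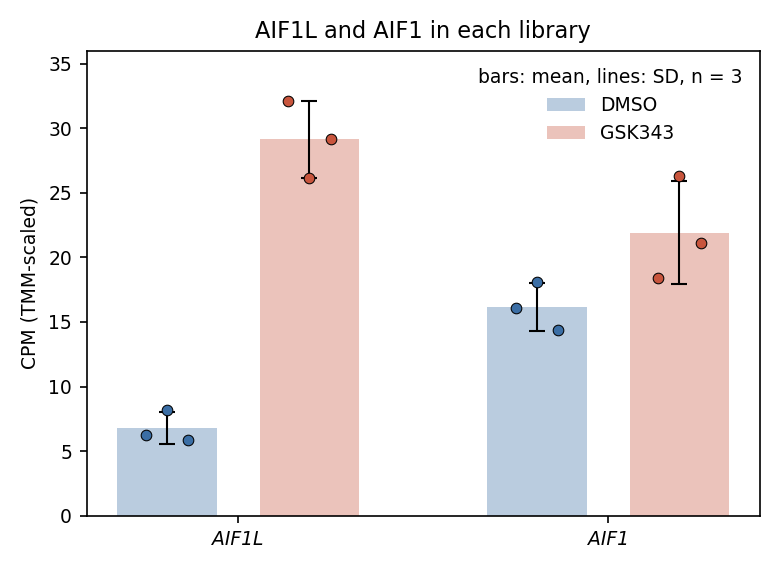
Levels of *AIF1L* and *AIF1* in CPM (vertical axis, TMM-scaled) in DMSO and GSK343 (EZH2i) libraries. Bars are means, lines are SD over 3 libraries and points are single libraries. The GSK343 points of *AIF1L*, from 26.2 to 32.1, sit well above its DMSO points, from 5.88 to 8.17, while the *AIF1* groups come close at 18.1 and 18.4.

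The balance of reads between the paralogs shifted within libraries, a comparison that does not depend on scaling. For each read on *AIF1* there were 0.388, 0.451 and 0.409 reads on *AIF1L* in DMSO replicates 1 to 3. In GSK343 replicates 1 to 3 there were 1.75, 0.995 and 1.38. *AIF1L* thus gave from 28.0% to 31.1% of the reads on the pair in DMSO and from 49.9% to 63.6% in GSK343. These shares contain the reads on which *AIF1L* was selected, so they restate that choice and are a description. Within GSK343 the share was lowest in replicate 2, which had the most *AIF1* reads and the lowest *AIF1L* level of its group. Neither gene shares an annotated exon base with another gene, and reads with more than 1 alignment were kept out of the gene counts, so a read matching both paralogs would be in neither.

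By size of log2 fold change, *AIF1L* ranked 43 and *AIF1* ranked 1308 of the 12364 tested genes. Among the 7071 genes whose average expression was at or above that of *AIF1L*, *AIF1L* ranked 1 and *AIF1* ranked 234. The next gene in that order was *OPTN*, named after its value was seen, with a log2 fold change of 1.56 and mean levels of 10.1 CPM in DMSO and 29.97 CPM in GSK343. These ranks follow from the choice of *AIF1L* and are not a test of it.

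Promoter sequences were taken from RefSeq (GRCh38.p14, 250 bases before to 50 after a start) to show how the CpG content of the *AIF1* promoter compares with that of the genes near *AIF1L* that are described next. Of the 2 members, 1 was matched in the promoter table used here, *AIF1*, and *AIF1L* was not. The sequences below run 5′ to 3′ along the strand of each gene, in lower case with every CG in capitals. CG reads the same on both strands, so each capital pair stands for both. *AIF1* has 2 listed starts, and the promoter shown, at chr6:31614984-31615283 on the plus strand, holds 1 CG, where 96.0% of 35116 promoters of this length hold as many or more. That of *FIBCD1*, at chr9:130939198-130939497 on the minus strand, holds 36, reached by 12.7% of promoters. That of *NUP214*, also with 2 listed starts, at chr9:131125336-131125635 on the plus strand, holds 31, reached by 20.7%. The median promoter holds 14, so *AIF1* lies at the CG-poor end and both chromosome 9 genes at the CG-rich end. These counts describe letters and not binding or methylation.
AIF1: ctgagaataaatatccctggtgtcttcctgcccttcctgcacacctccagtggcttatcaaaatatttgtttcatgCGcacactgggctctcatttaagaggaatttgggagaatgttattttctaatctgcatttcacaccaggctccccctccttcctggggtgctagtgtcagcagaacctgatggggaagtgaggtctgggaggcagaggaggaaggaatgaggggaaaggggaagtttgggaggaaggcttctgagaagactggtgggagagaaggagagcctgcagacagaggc
FIBCD1: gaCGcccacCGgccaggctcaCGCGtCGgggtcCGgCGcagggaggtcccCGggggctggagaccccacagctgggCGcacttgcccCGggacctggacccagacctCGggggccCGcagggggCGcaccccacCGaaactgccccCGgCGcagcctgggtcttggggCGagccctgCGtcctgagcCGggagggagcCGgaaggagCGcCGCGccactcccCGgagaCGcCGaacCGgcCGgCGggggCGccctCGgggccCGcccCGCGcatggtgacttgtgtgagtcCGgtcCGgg
NUP214: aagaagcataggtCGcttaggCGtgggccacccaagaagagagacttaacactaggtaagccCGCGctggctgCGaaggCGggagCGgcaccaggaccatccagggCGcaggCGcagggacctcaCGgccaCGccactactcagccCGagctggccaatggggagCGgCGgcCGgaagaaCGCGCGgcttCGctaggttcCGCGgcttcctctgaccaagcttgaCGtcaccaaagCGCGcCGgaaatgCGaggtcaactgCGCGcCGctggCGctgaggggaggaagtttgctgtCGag

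Around *AIF1L*, 1 gene was called higher in GSK343 and the nearest expressed gene was not. Within 500 kb of *AIF1L*, GENCODE places 35 other genes, of which 30 are listed in the counts. Of these, 11 had no read, 9 had at most 4 reads in any library and were not tested, and 10 were tested. A gene was called when its adjusted p from edgeR's quasi-likelihood test, two-sided and adjusted by the Benjamini-Hochberg method over all tested genes, was under 0.05. By this rule 1 of the 10 neighbours was called higher and 0 lower, beside 4.26% of all tested genes called, 3.34% higher and 0.922% lower. The neighbours had a median log2 fold change of 0.11, against -0.00 for all tested genes, and 6 of the 10 lay above 0. In 2 of them, *FIBCD1* and *EXOSC2*, every GSK343 library was above every DMSO library, where 13.3% of tested genes showed this.

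*FIBCD1*, a transmembrane receptor that binds chitin and other acetylated structures, was the neighbour that rose. It lies 157 kb from *AIF1L*, at chr9:130902438-130939286 on the opposite strand. Its levels were 4.37, 4.97 and 3.51 CPM in DMSO and 14.0, 11.1 and 10.00 CPM in GSK343. As with *AIF1L*, the groups stood apart, with the highest DMSO library at less than the lowest GSK343 library. The mean rose from 4.28 ± 0.736 to 11.7 ± 2.10 CPM (± SD over 3 libraries), which on the log2 scale is 1.45 ± 0.228 (SE; edgeR adjusted p = 0.00156). The call was kept in all 6 fits that each left out a library, with an adjusted p from 0.00198 to 0.0162 in edgeR.

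Directly beside *AIF1L* the picture was different. *LAMC3*, a laminin chain gene that ends 2003 bp before *AIF1L* begins, had 1, 1 and 0 reads in DMSO and 2, 2 and 0 in GSK343, too few to test. At this depth a fall or a small rise of *LAMC3* would not have been detected. *NUP214*, which encodes a nuclear pore protein and starts 2421 bp after the end of *AIF1L*, was at 392, 370 and 344 CPM in DMSO and at 437, 368 and 391 CPM in GSK343. Its groups overlapped, and its log2 fold change was 0.11 ± 0.103 (SE; edgeR adjusted p = 0.599). For every 100 reads on *NUP214*, *AIF1L* had 1.59, 2.21 and 1.71 reads in the DMSO replicates and 7.35, 7.11 and 7.45 in the GSK343 replicates. This ratio restates the values on which *AIF1L* was selected, relative to a gene of similar level in both groups. Exons of *NUP214* overlap antisense noncoding genes, and the strand setting of the counting is not given in the sources used here, so their reads cannot be told apart.

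The other 8 tested neighbours were not called. *ABL1*, the tyrosine kinase gene whose 3' part is joined to *BCR* in K562, lay 209 kb away with 214, 190 and 185 CPM in DMSO and 201, 213 and 233 CPM in GSK343. Its groups overlapped, with a log2 fold change of 0.14 (edgeR adjusted p = 0.509), and reads from the 3' end do not tell the fusion transcript from the normal one. An overlapping gene on the same strand shares exon bases with *ABL1* near the start of *ABL1*, at chr9:130713626-130713724. It had 0 reads in every library, and the *ABL1* count is uncertain by any reads from those bases. *PLPP7*, a phospholipid phosphatase family gene 166 kb away, had 5, 13 and 3 reads in DMSO and 16, 11 and 16 in GSK343. Its log2 fold change of 1.11 had a standard error of 0.496, its groups overlapped, and it did not pass the threshold (edgeR adjusted p = 0.231). Its value depended on single libraries, at 1.83 without DMSO replicate 2 and 0.68 without DMSO replicate 3. Among the remaining neighbours the values were small. *EXOSC2*, of the RNA exosome, had a log2 fold change of 0.29, and *RAPGEF1*, an exchange factor for the GTPase RAP1, had 0.11. *FAM78A* had a log2 fold change of -0.05, the nucleoside kinase gene *UCK1* -0.10, the single-strand DNA-binding protein gene *FUBP3* -0.16 and the protein mannosyltransferase gene *POMT1* -0.39. Values this small depended on single libraries. For instance, *RAPGEF1* was at 0.002 without GSK343 replicate 2. Without GSK343 replicate 1 it was at 0.24 and *FUBP3* at -0.03. Over the 9 neighbours that were not called, adjusted p ranged from 0.231 to 0.856 in edgeR. *POMT1* and *UCK1* share exon bases on opposite strands, so their counts are uncertain. Copy number along chromosome 9 was not analysed here.

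**Figure D2:**
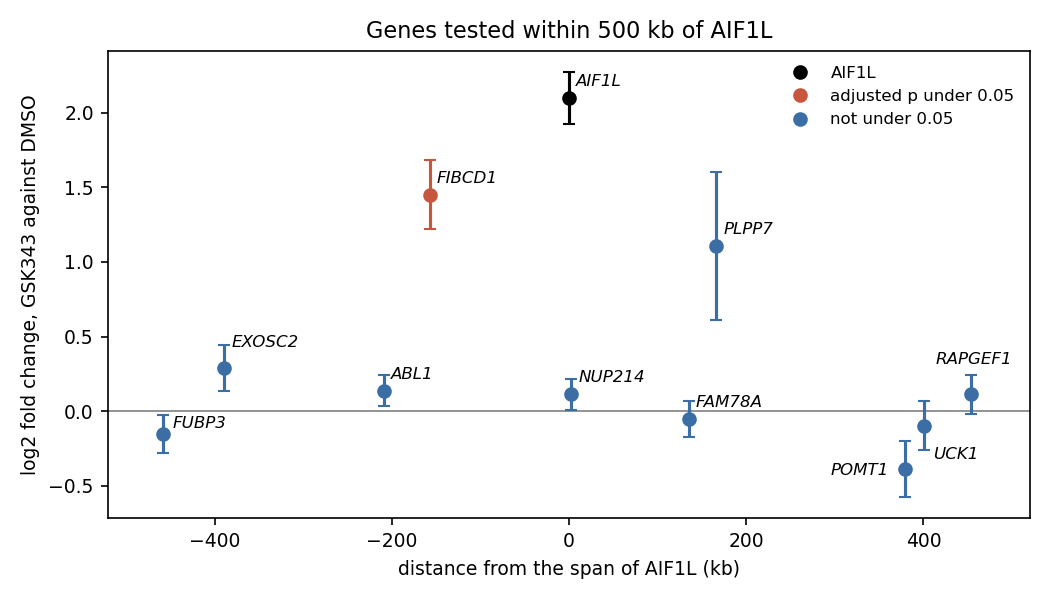
Log2 fold change between GSK343 and DMSO (vertical axis) of the 10 tested genes within 500 kb of *AIF1L*, and of *AIF1L* itself (black), by distance from its span in kb (horizontal axis). Points are estimates and lines are 1 standard error from 3 libraries per group. *FIBCD1* at 1.45 is the neighbour with an adjusted p under 0.05, *PLPP7* has the widest error, and *NUP214* beside *AIF1L* is at 0.11.

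Widening the window to 1 Mb brought in 1 more called gene. *NCS1*, which encodes neuronal calcium sensor 1, an EF-hand protein like AIF1L, lies 859 kb away. Its levels were 2.65, 3.20 and 2.72 CPM in DMSO and 5.67, 8.42 and 6.85 CPM in GSK343, without overlap between the groups. The mean rose from 2.85 ± 0.298 to 6.98 ± 1.38 CPM (± SD over 3 libraries), which on the log2 scale is 1.284 ± 0.266 (SE; edgeR adjusted p = 0.0114). The call was lost by a narrow margin without DMSO replicate 1 (edgeR adjusted p = 0.053), without DMSO replicate 3 (edgeR adjusted p = 0.0536) and without GSK343 replicate 2 (edgeR adjusted p = 0.0524). In this window 2 of 14 tested neighbours were called, both higher, a share of 14.3% beside 4.26% of all tested genes.

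The surroundings of *AIF1* are denser. Within 500 kb lie 130 annotated genes, 122 of them in the counts and 36 tested, of which 2 were called higher and 0 lower, a share of 5.56% beside 4.26% of all tested genes. Both called genes entered the test through their GSK343 counts, so nothing further is read from this share. The median log2 fold change of the 36 was -0.02. The nearest tested genes had log2 fold changes of 0.03 for the leukocyte gene *LST1* and 0.21 for *NFKBIL1* on the lower side, and of 0.02 for *PRRC2A* and 0.05 for the chaperone gene *BAG6* on the upper side. None of these 4 was called by edgeR. *LST1*, *NFKBIL1* and *BAG6* share exon bases with genes on the opposite strand, so their counts are uncertain. *PRRC2A* shares exon bases with 2 genes of GENCODE on its own strand, which the counts do not list.

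The 2 called genes near *AIF1* were named after their values were seen, and both rest on few reads. Both entered the test through their GSK343 counts, so no call is read from them. *HLA-B*, a class I antigen-presenting molecule, had 2, 7 and 3 reads in DMSO and 12, 24 and 23 in GSK343. Between the groups the log2 fold change was 2.35 ± 0.498 (SE), and the call was lost without DMSO replicate 1 and without DMSO replicate 3. *MPIG6B*, an inhibitory receptor of platelets and megakaryocytes, had 4, 14 and 6 reads in DMSO and 23, 33 and 25 in GSK343. For it the log2 fold change was 1.83 ± 0.404 (SE), and the call was lost without DMSO replicate 1, DMSO replicate 3 or GSK343 replicate 2. Requiring at least 10 reads in every library leaves both genes untested and 0 of 32 tested neighbours called. *HLA-B* has close paralogs, and both genes overlap exons of others, so these counts are uncertain.

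The genes whose pattern over the 6 libraries was most like that of *AIF1L* were all of low level. Likeness was measured as the root mean square difference between log2 CPM profiles, with 2 reads added and each gene centred on its own mean. On that scale a small value means a like pattern and a like size of change. The added reads shrink the change of genes with few reads. Without them, the ratio of mean CPM among the 5 closest genes ran from 5.17 (*PERP*) to 6.27 (*NOTCH2*), against 4.31 for *AIF1L*. This measure contains the contrast on which *AIF1L* was selected, and the list below is a description. The closest of the tested genes was *PERP*, a membrane protein of desmosomes and a p53 target, at 0.11, with 4, 7 and 5 reads in DMSO and 26, 29 and 23 in GSK343. The long noncoding RNA gene *PCAT19*, at 0.14, had 3, 6 and 4 reads and then 32, 22 and 19. The cytokine gene *IL18*, at 0.17, had 2, 6 and 2 reads in DMSO and 19, 18 and 18 in GSK343. In all of these, as in *AIF1L*, DMSO replicate 2 was the highest of its group. The receptor gene *NOTCH2*, at 0.19, had 2, 5 and 4 reads and then 28, 16 and 19, and it has partial copies elsewhere in the genome that can take its reads. *RBMS1*, an RNA-binding protein gene, at 0.20, had 3 reads in each DMSO library and 19, 15 and 18 in GSK343, so its DMSO level is at the limit that a count of 0 allows. Reads this few carry a large counting error. All 5 genes entered the test through their GSK343 counts and were chosen on a measure that contains the contrast. No call is therefore read from them. The median over tested genes was 1.07, while *FIBCD1* ranked 39 at 0.36 and *AIF1* ranked 1158 at 0.86.

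**Figure D3:**
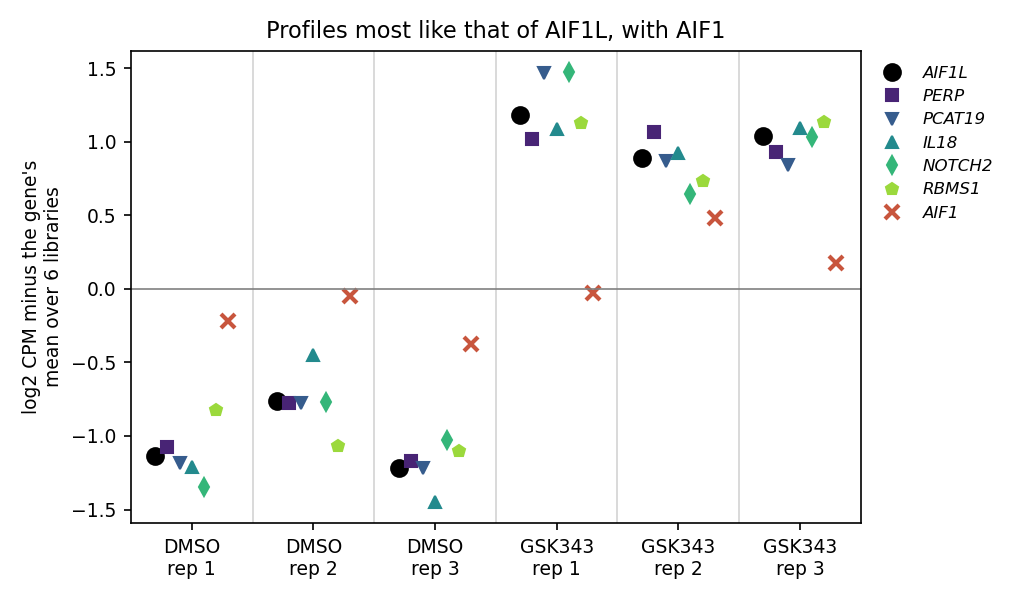
Log2 CPM minus the mean of each gene over 6 libraries (vertical axis) in each library (horizontal axis, points offset sideways for clarity) for *AIF1L*, the 5 genes most like it and *AIF1*. Black circles are *AIF1L*, and red crosses are *AIF1*, whose values from -0.37 to 0.49 span a much narrower range than those of *AIF1L*, from -1.22 to 1.18.

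Genes with the same biochemical roles were looked at as lists drawn up from the known functions of their products. Over 3 lists of actin and calcium genes with 120 members, 93 were tested, 7 were called higher and 1 lower, a share of 8.60% beside 4.26% of all tested genes. The lists were chosen with earlier results known, so the shares are descriptions. This count depended on single libraries, with 3 genes called without DMSO replicate 1, 4 without DMSO replicate 2 and 4 without DMSO replicate 3, in place of 8. Leaving out the same libraries also lowered the count over all tested genes, from 527 to 213, 209 and 240 for DMSO replicates 1 to 3.

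Among EF-hand calcium proteins outside the S100 family, 31 of 44 genes were tested, 3 were called higher and 0 lower (9.68% beside 4.26% of all tested genes), and the median log2 fold change was 0.04. *NCS1*, described above as a distant neighbour, had the largest change of the called ones. *CALB1*, the calcium buffer calbindin, was at 7.80, 6.75 and 8.26 CPM in DMSO and at 13.1, 15.0 and 16.1 CPM in GSK343, with no overlap. It rose by a log2 fold change of 0.95 ± 0.184 (SE; edgeR adjusted p = 0.00678), a call kept in all 6 fits that left out a library. *CIB2*, a calcium- and integrin-binding protein, was at 32.7, 33.4 and 26.8 CPM in DMSO and at 65.2, 43.4 and 41.1 CPM in GSK343, where replicate 1 stood above the rest. Its log2 fold change was 0.69 ± 0.163 (SE; edgeR adjusted p = 0.0237), but adjusted p in edgeR was 0.0762, 0.0679 and 0.11 without DMSO replicates 1, 2 and 3. Without GSK343 replicate 1 the log2 fold change of *CIB2* fell to 0.45 (edgeR adjusted p = 0.0532). *IDH3A* on the other strand shares exon bases with *CIB2*. The other 28 tested EF-hand genes ran from -0.32 to 0.91.

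Of the actin bundling and crosslinking genes, the closest in function to AIF1L and AIF1, 25 of 37 were tested, 1 was called higher and 0 lower, a share of 4.0% beside 4.26% of all tested genes, with a median log2 fold change of 0.12. *TAGLN2*, which encodes the actin-gelling protein transgelin 2, was at 629, 592 and 635 CPM in DMSO and at 825, 812 and 797 CPM in GSK343. It had a small spread in both groups and a log2 fold change of 0.39 ± 0.0952 (SE; edgeR adjusted p = 0.0284). Its adjusted p in edgeR exceeded 0.05 without DMSO replicates 1, 2 and 3 (0.0851, 0.114 and 0.078) and without GSK343 replicates 2 and 3 (0.083 and 0.0587). *LCP1*, the AIF1 partner L-plastin, is named for that role outside the rule for naming genes. It was at 239, 260 and 279 CPM in DMSO and at 272, 295 and 318 CPM in GSK343, and these groups overlapped. At 0.18 ± 0.104 (SE) its log2 fold change did not pass the threshold (edgeR adjusted p = 0.349), and an antisense gene shares exon bases with it.

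Among actin nucleation and turnover genes, calls went in both directions. Of 39 genes 37 were tested, 3 were called higher and 1 lower (10.8% beside 4.26%), and the median log2 fold change was 0.03. *WASF1*, which activates actin nucleation, was at 9.51, 6.87 and 4.86 CPM in DMSO and at 12.3, 15.2 and 16.6 CPM in GSK343. The groups differed by a log2 fold change of 1.08 ± 0.226 (SE; edgeR adjusted p = 0.0123), and the call was lost without DMSO replicate 2 (edgeR adjusted p = 0.063) and DMSO replicate 3 (edgeR adjusted p = 0.0661). *GSN*, the calcium-dependent severing protein gelsolin, rose from 12.5 ± 0.984 to 23.5 ± 3.45 CPM (± SD over 3 libraries), with a log2 fold change of 0.91 (edgeR adjusted p = 0.00338) that was called in every fit leaving out a library. *TMOD1*, a cap of pointed filament ends, rose from 34.6 ± 3.47 to 52.2 ± 3.24 CPM (± SD over 3 libraries), with a log2 fold change of 0.59 (edgeR adjusted p = 0.0109), a call lost without DMSO replicate 1 (edgeR adjusted p = 0.0728). *GSN* and *TMOD1* share exon bases with genes on the opposite strand.

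*TMSB4X*, the gene of the monomer-sequestering thymosin beta 4, was the list gene called lower. Its levels were 65.8, 89.6 and 49.7 CPM in DMSO and 25.3, 47.4 and 43.3 CPM in GSK343, and DMSO replicate 3 was only a little above GSK343 replicate 2. The log2 fold change was -0.82 ± 0.207 (SE; edgeR adjusted p = 0.0332). The call was lost in edgeR without DMSO replicate 1 (adjusted p = 0.101), without DMSO replicate 2 (adjusted p = 0.209) and without GSK343 replicate 1 (adjusted p = 0.0519), and with DESeq2 (adjusted p = 0.231). The gene has processed copies in the genome that can share its reads.

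**Figure D4:**
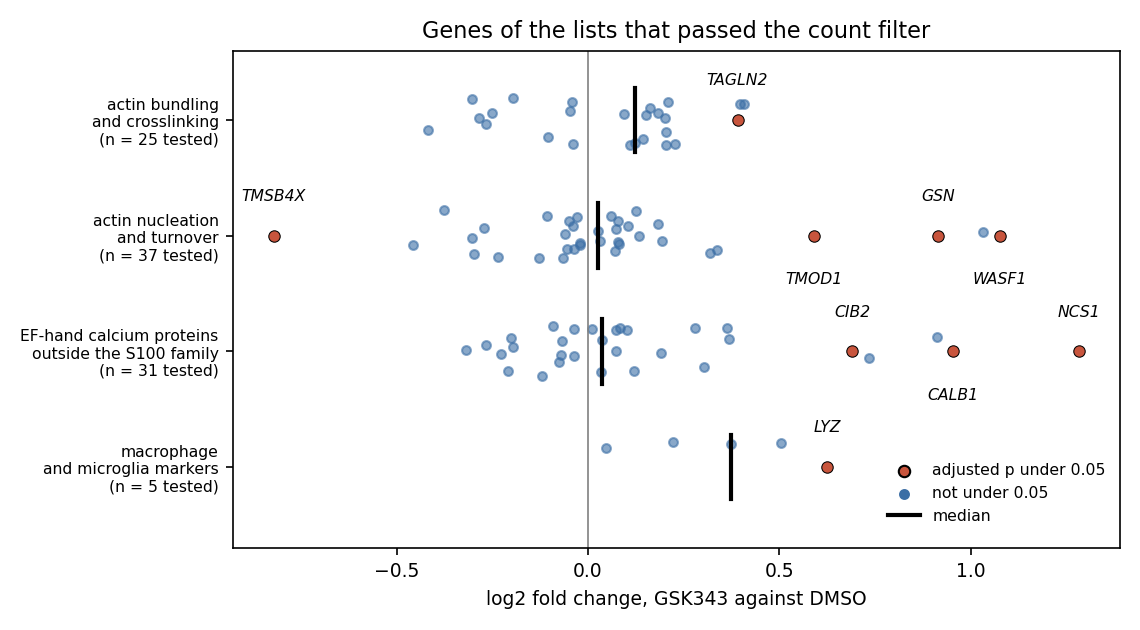
Log2 fold change between GSK343 and DMSO (horizontal axis) of the tested genes of 4 lists (vertical axis, points offset vertically for clarity). Red points have an adjusted p under 0.05 in edgeR, blue points do not, and black lines are medians. *TMSB4X* at -0.82 is the called point below 0, and *NCS1* at 1.284 is the highest.

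Because AIF1 is used as a marker of macrophages and microglia, the markers of these cells were examined in the same libraries. Of 20 markers 12 had a read and 5 were tested, and 8 (*CSF1R*, *P2RY12*, *TMEM119*, *CD163*, *MARCO*, *C1QB*, *C1QC* and *TREM2*) had 0 reads in all 6 libraries. The other 7 had too few reads to test. Of these, 6 had more reads in GSK343 than in DMSO, and *FCER1G*, named after its values were seen, had fewer, with 3, 5 and 4 and then 0, 2 and 2. All 5 tested markers had a log2 fold change above 0. A count of 0 allows 3 reads, or from 0.339 to 0.468 CPM by library. The summed level of the list was 41.2, 43.2 and 36.3 CPM in DMSO and 68.2, 53.3 and 49.98 CPM in GSK343, higher in every GSK343 library. Most of this sum and of its rise came from *SPI1* and *LYZ*, given below. The other tested markers, *CD68*, *ITGAM* and *TYROBP*, had log2 fold changes of 0.05, 0.22 and 0.37. Their groups overlapped and they were not called. The myeloid transcription factor gene *SPI1*, which is also active in erythroid progenitors, was at 16.7, 20.5 and 14.7 CPM and then at 31.3, 22.0 and 20.3 CPM. The *SPI1* groups overlapped, and its log2 fold change of 0.50 was not called (edgeR adjusted p = 0.124). *LYZ*, the gene of lysozyme, was the 1 marker called of 5 tested (20% beside 4.26% of all tested genes), with 16.4, 14.2 and 11.0 CPM in DMSO and 23.0, 20.6 and 20.0 CPM in GSK343. Its log2 fold change of 0.62 (edgeR adjusted p = 0.0426) was not called in any of the 6 fits that left out a library. Without DMSO replicates 1, 2 and 3 adjusted p in edgeR was 0.053, 0.124 and 0.16, without GSK343 replicates 1, 2 and 3 it was 0.0725, 0.0744 and 0.0579, DESeq2 gave 0.0867, and requiring 10 reads in every library gave 0.0504 in edgeR. An antisense noncoding gene shares exon bases with *LYZ*. Whether any of these markers moves with *AIF1* from cell to cell was not tested.

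The cells carried the erythroid markers of K562. All 12 had reads, and their summed level was 1445, 1251 and 1382 CPM in DMSO and 1721, 1535 and 1516 CPM in GSK343, higher in every GSK343 library. Of these, 3 were called higher and 0 lower, a share of 25% beside 4.26% of all tested genes. *HBZ*, the embryonic zeta globin gene, had a log2 fold change of 1.15 (edgeR adjusted p = 6.14e-05), called in every fit run. *HBG2*, a fetal globin gene with a near-identical copy in *HBG1*, had a log2 fold change of 0.58 (edgeR adjusted p = 0.0251). *ALAS2*, the erythroid enzyme of heme synthesis, had 0.50 (edgeR adjusted p = 0.0269). *HBG1* went the other way, from a mean of 11.2 CPM in DMSO to 8.48 CPM in GSK343, and its groups overlapped. Its log2 fold change of -0.39 was not called (edgeR adjusted p = 0.444). Of the 12 markers 8 had a log2 fold change above 0. Without DMSO replicates 1, 2 and 3, adjusted p in edgeR was 0.0724, 0.138 and 0.0624 for *HBG2* and 0.0882, 0.12 and 0.0868 for *ALAS2*, so both calls were lost. *HBZ* and *HBG2* have overlapping genes and *ALAS2* has *APEX2* on the other strand, so these counts are uncertain. These 3 erythroid markers thus rose in the libraries in which *AIF1L* lay higher, and their part in its level was not tested.

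In GSK343, different libraries stood apart by different measures. Replicate 1 differed most from the others over all genes, at 9.75 and 11.5 against replicates 2 and 3 (chi-square divided by its degrees of freedom), where those had 4.25 between them. It also had the highest *HBG2*, *ALAS2*, *SPI1* and *CIB2* levels of the group, and without it the log2 fold change of *AIF1L* was 2.03 and that of *AIF1* was 0.56. Replicate 3 had 12.7% of its listed reads on no annotated gene, against 7.43% to 8.51% in the other 5 libraries. Without replicate 3 the values for *AIF1L* and *AIF1* were 2.10 and 0.47.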

How the data were processed

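QuantSeq 3' FWD libraries of 3 DMSO and 3 GSK343 cultures were analysed; the study calls its genomics replicates biological. The authors deposited raw read counts per Ensembl gene, 1 set per library without pooling, on hg38. The submitters' processing notes name STAR 2.6.0c, HTSeq 0.11.2 and DESeq2; the paper names Ensembl release 101 as annotation, and the strand setting is not given in the sources used here. A deposited table of the authors' own DESeq2 comparison (fold changes, p-values) was not used.

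Reads assigned to no gene did not enter the library sizes; genes held from 63.6% to 67.9% of listed reads. Names and positions came from GENCODE 44 on GRCh38, which matched 60401 identifiers. With edgeR 4.0.16 in R 4.3.3, counts were scaled by TMM, filtered by filterByExpr (minimum count 10) and fitted by glmQLFit; glmQLFTest was two-sided, with p adjusted over all tested genes (Benjamini-Hochberg, 0.05). Common dispersion came to 0.0129, and the standard error is the log2 fold change divided by the root of F. Procedures were tested on simulated data. Replicates of a group differed by more than sampling noise (chi-square per degree of freedom 4.25 to 11.5), so none was treated as a copy.

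The members and the gene lists were chosen with earlier results of these data known; 1 further list is not reported here, for a reason unrelated to its values. Genes named are the members; every tested neighbour within 500 kb of *AIF1L*, untested ones by count, and the nearest gene on each side; called list genes, up to 3 per direction by size of log2 fold change; the 5 genes of most similar profile; and the 2 nearest tested genes on each side of *AIF1*. Alternatives were DESeq2 1.42.0, RLE size factors, no filter, at least 10 reads in every library, a replicate block, windows of 250 kb and 1 Mb, and leaving out each library. Counting error of PCR-amplified reads is not that of independent molecules, so floors cover counting error only.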

Additional observations from a re-analysis of the deposited data

How the results depend on the processing

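The log2 fold change of *AIF1L* ran from 1.998 to 2.27 when single libraries were left out, and was 2.09 with DESeq2 and 2.08 with no filtering of low counts. For *AIF1* the same fits gave 0.29 to 0.56, and DESeq2 gave 0.42. Within 500 kb of *AIF1L*, 1 neighbour was called in every fit, those leaving out a library included, and 2 were called within 1 Mb. Over all tested genes 527 passed the threshold, 928 with no filtering, and 209 to 536 when a library was left out. DESeq2 called 296 higher and 143 lower, in place of 413 and 114. Of the list genes 8 were called, 14 without a filter, and 3 to 9 when a library was left out. By direction these were 7 higher and 1 lower, and 9 higher and 5 lower without a filter. DESeq2 called 8 list genes higher and 0 lower. The filter changes which genes are tested and a left-out library leaves fewer samples; other causes were not tested.

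Of 15 named genes that were called, without those chosen by profile, 4 were called under every alternative and 11 lost the call under at least 1 alternative, while 0 changed sign. Both the 15 and the 11 include *HLA-B* and *MPIG6B*, which entered the test through their GSK343 counts. The genes chosen by profile were not counted, because that choice contains the contrast tested. Among genes not called, *LST1* changed sign without DMSO replicate 2 (log2 fold change -0.01), GSK343 replicate 1 (-0.15) and GSK343 replicate 3 (-0.02), and reached 0.24 without GSK343 replicate 2. *PRRC2A* changed sign with no filtering (-0.000472), without DMSO replicate 2 (-0.0626), GSK343 replicate 1 (-0.05) and GSK343 replicate 2 (-0.0582), and reached 0.16 without GSK343 replicate 3.

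With a replicate block the log2 fold change of *AIF1L* was 2.10 and that of *AIF1* 0.44, and 599 genes, 9 list genes and 1 neighbour were called. Deviations of same-numbered libraries from their group means had correlations of -0.0511, -0.0175 and -0.0170. With 3 libraries per group these values cannot decide whether the numbers pair the cultures.

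Depth limits the account of neighbours with few reads and of the most similar profiles. With 3 libraries per group, 1 clone and 1 time point, other doses, times and clones were not examined, and protein, histone marks and copy number were not analysed here. Reads at transcript ends do not tell isoforms apart.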
